A study of Mus musculus with 6 samples.

Results

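The T cell receptor signalling and costimulation genes were followed in LSK cells. These lin-, Sca1+ and c-Kit+ cells of the mouse bone marrow include the haematopoietic stem cells and the progenitors that still have several fates. The list named 10 genes: the CD3 chains Cd3d, Cd3e and Cd3g, the zeta chain Cd247, the kinases Lck and Zap70, the adaptors Lat and Themis, and the costimulatory receptors Cd28 and Icos. Every probe set that the platform annotation gave to 1 of them alone was taken, which yielded 20 of 45037 probe sets and 9 of 18193 genes. No probe set was listed for Lck, so that it was not analysed here. Of the 9 genes, 1 differed between the genotypes, where 0.989% of all genes did. Icos fell in IkL/L cells by the brightest of its 3 probe sets, and the other 8 genes did not pass the test. The other probe sets of Icos did not pass. With 1 array left out at a time, the call for Icos held in 1 of 6 fits.

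The samples were 3 WT and 3 IkL/L arrays. All mice were C57BL/6 of 6 to 7 weeks. The IkL/L mice were homozygous for a hypomorphic allele of Ikzf1, which lowers Ikaros in every cell that uses the gene and not only in LSK cells. A WT array measured a single mouse, whereas 2 mutant mice were combined for every IkL/L array, and the groups thus differ in how many mice they hold. Per the methods, the lineage antibodies used to deplete marrow before the LSK sort were directed against B220, CD11b, Gr1 and Ter119, and a CD3 antibody was not among them.

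The T cell receptor recognises antigen but cannot signal by itself. The CD3 and zeta chains that assemble with it carry tyrosine motifs which Lck phosphorylates, Zap70 then docks on these motifs and phosphorylates the scaffold Lat, and Themis tunes the response in thymocytes. Cd28 and Icos are related receptors that deliver a second, costimulatory signal. LSK cells lie upstream of T-lineage commitment, which takes place in the thymus. The comparison asks which parts of the apparatus are measurable before that stage and whether they differ when Ikaros is lowered.

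Values are log2 RMA values, and RMA gives no detection call. A probe set was therefore set against the median of all probe sets on the same array, which lay between 4.788 and 4.88, and a value near or under it cannot be told from background. Differences are IkL/L minus WT from limma, with p adjusted over all 45037 probe sets by the Benjamini-Hochberg method and a threshold of 0.05. By this test 0.557% of all probe sets and 0.989% of all genes were called, the latter each read from its brightest probe set. The arrays correlated at 0.9861 to 0.995 over all probe sets.

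The targeted gene, Ikzf1, was measured at 11.57, 11.59 and 11.44 in the 3 WT arrays and at 10.77, 10.85 and 10.93 in the 3 IkL/L arrays. The groups did not overlap, and the difference was -0.68 (adjusted p = 0.0307 in limma). The call held without WT 3 (adjusted p = 0.0436) and was lost without any 1 of the other 5 arrays (up to 0.157). The other Ikzf1 probe set, also above the medians on all 6 arrays, did not overlap between the groups either, but its difference of -0.21 did not pass (0.622). All 5 measured LSK markers lay above the medians on all 6 arrays. Of 9 measured T cell markers, Cd2, Cd5, Cd8b1 and Ptcra lay under the medians on all 6 arrays, and 4 others (Cd4, Cd6, Cd8a and Gata3) lay above them on all 6.

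The upstream sequences of 4 members are shown because they stand on either side of the array medians in the probe set read for each. Lat and Zap70 lay above them, and Cd3d and Cd3g, neighbours in the genome that are read from opposite strands, lay under them. Another probe set of Zap70 lay under them. Each sequence is the 250 bases before the start of the gene, 5′ to 3′, from RefSeq on build GRCm38.p6. Capitals mark AGGAA or its reverse complement TTCCT, the core of the motif that the study assigns to Ikaros.
Lat, chr7:126369569-126369818, minus strand: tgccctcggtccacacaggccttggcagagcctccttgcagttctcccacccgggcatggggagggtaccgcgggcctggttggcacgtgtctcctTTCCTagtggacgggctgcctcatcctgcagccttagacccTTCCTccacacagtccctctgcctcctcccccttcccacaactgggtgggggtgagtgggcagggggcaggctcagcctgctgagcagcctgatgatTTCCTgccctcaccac
Zap70, chr1:36761548-36761797, plus strand: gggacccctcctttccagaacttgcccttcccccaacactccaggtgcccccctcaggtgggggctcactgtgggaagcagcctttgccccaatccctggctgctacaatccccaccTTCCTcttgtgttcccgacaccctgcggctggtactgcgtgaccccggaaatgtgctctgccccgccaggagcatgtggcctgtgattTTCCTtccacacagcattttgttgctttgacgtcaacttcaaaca
Cd3d, chr9:44981536-44981785, plus strand: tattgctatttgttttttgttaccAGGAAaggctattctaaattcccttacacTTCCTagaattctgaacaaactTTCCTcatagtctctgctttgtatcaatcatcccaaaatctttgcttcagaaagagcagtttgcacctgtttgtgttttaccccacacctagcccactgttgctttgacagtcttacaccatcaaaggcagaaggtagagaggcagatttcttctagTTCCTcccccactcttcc
Cd3g, chr9:44980432-44980681, minus strand: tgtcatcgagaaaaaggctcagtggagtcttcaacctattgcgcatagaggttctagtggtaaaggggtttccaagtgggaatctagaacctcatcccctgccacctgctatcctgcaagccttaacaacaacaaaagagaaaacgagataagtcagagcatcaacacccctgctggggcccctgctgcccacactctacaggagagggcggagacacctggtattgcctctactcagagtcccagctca
The motif occurred 3 times before Lat, 2 times before Zap70, 4 times before Cd3d and 0 times before Cd3g. Zap70 has 3 annotated starts, of which the most upstream is shown, and the windows of the other two held it 4 and 0 times. Over all 32851 windows of this length, 60.3% held it on either strand and 26.0% held it at least 2 times, so that its presence is common. A match is a run of letters and not a bound site, and the arrays do not measure binding.

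The CD3 and zeta chains lay under the array medians in LSK cells of both genotypes, except Cd3e, which lay somewhat above them. Cd3d stood at 3.87, 4.26 and 4.41 on WT 1, 2 and 3 and at 4.18, 4.27 and 4.35 on IkL/L 1, 2 and 3. Cd3g stood at 3.25, 3.02 and 3.26 in WT and at 3.33, 3.07 and 2.90 in IkL/L cells. Both genes lay under the median on every array, and their groups overlapped. Each was read from 1 probe set, so there was no second reading of its level. The log2 differences were 0.09 for Cd3d (95% interval -0.25 to 0.43, adjusted p = 0.907) and -0.07 for Cd3g (-0.39 to 0.24, 0.917).

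Cd247, the zeta chain with its set of tyrosine motifs, was covered by 4 probe sets, all under the medians on all 6 arrays. Its brightest probe set stood at 4.11, 3.76 and 3.82 in WT and at 4.18, 4.24 and 3.63 in IkL/L cells, so that the groups overlapped (difference 0.12, adjusted p = 0.893). The 4 differences ran from -0.12 to 0.12, with 2 below 0 and 2 above, and every adjusted p was at least 0.861.

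Cd3e, the chain on which CD3 antibodies commonly rely, was the 1 CD3 gene above the medians. It stood at 5.50, 5.75 and 5.69 on WT 1, 2 and 3 and at 5.67, 5.61 and 5.78 on IkL/L 1, 2 and 3, and all 6 values exceeded the median of their own array. The groups overlapped, with a difference of 0.04 (95% interval -0.21 to 0.29, adjusted p = 0.944), which was under the SD of 0.13 between WT arrays. The means of Cd3e lay 0.81 (WT) and 0.86 (IkL/L) above the array medians, and under the stricter bound of 6 used below. Only 1 probe set measured this gene, so there was no second reading of its level.

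**Figure D1:**
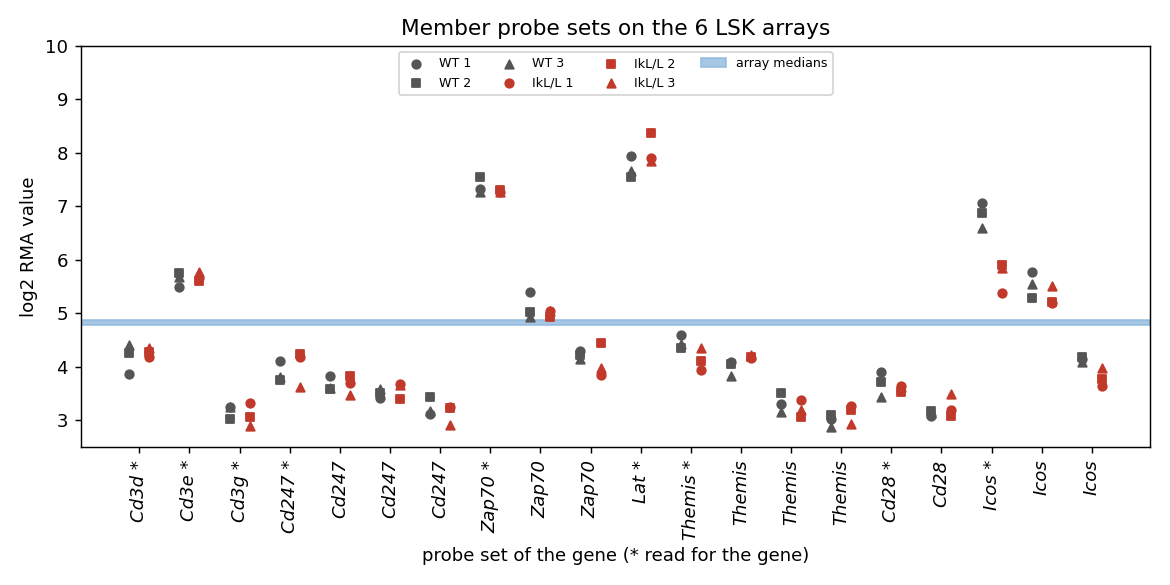
Log2 RMA value (vertical axis) of the 20 member probe sets on each array, WT in grey and IkL/L in red, with the probe set read for each gene marked by an asterisk and the blue band spanning the 6 array medians (4.788 to 4.88). Lat, Cd3e and the asterisked probe sets of Zap70 and Icos lay above the band on all 6 arrays, and the WT and IkL/L points of the asterisked Icos probe set do not overlap.

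The signalling proteins next to the CD3 chains showed no call. Zap70, the kinase recruited to phosphorylated CD3 and zeta chains, stood at 7.33, 7.54 and 7.27 on WT 1, 2 and 3 and at 7.28, 7.30 and 7.28 on IkL/L 1, 2 and 3 by its brightest probe set (1439749_at). The IkL/L values lay inside the WT range, and the difference was -0.10 (95% interval -0.33 to 0.14, adjusted p = 0.846). Of its other probe sets, 1440178_x_at lay above the medians on all 6 arrays, from 4.93 to 5.41, and 1422701_at lay under them, from 3.86 to 4.45. Each gave a difference of -0.12. The annotation lists no accession for the probe set read.

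Lat, the membrane scaffold that Zap70 phosphorylates and that mast cells and platelets also use, lay above the medians on all 6 arrays. It stood at 7.94, 7.55 and 7.66 on WT 1, 2 and 3 and at 7.91, 8.37 and 7.85 on IkL/L 1, 2 and 3. The highest value was that of IkL/L 2, but WT 1 lay above the other two mutant arrays, so that the groups overlapped. The difference of 0.32 (95% interval -0.06 to 0.71) did not pass (adjusted p = 0.646), and leaving out 1 array at a time gave 0.16 to 0.44. Lat was read from 1 probe set.

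Themis, a protein of thymocytes that sets the strength of receptor signalling, lay under the medians on all 6 arrays in each of its 4 probe sets. Its brightest probe set stood at 4.60, 4.36 and 4.44 in WT and at 3.95, 4.12 and 4.36 in IkL/L cells. IkL/L 3 and WT 2 were equal at this precision, so that the groups overlapped, and the difference of -0.32 did not pass (adjusted p = 0.525, unadjusted p = 0.0382 in limma). The next probe set ran the other way, with all 3 IkL/L values of 4.16 to 4.22 above the WT values of 3.84 to 4.08 and a difference of 0.20 (adjusted p = 0.647). The other 2 gave -0.11 and 0.13. The 4 probe sets thus differed in sign, and no direction is given for Themis.

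**Figure D2:**
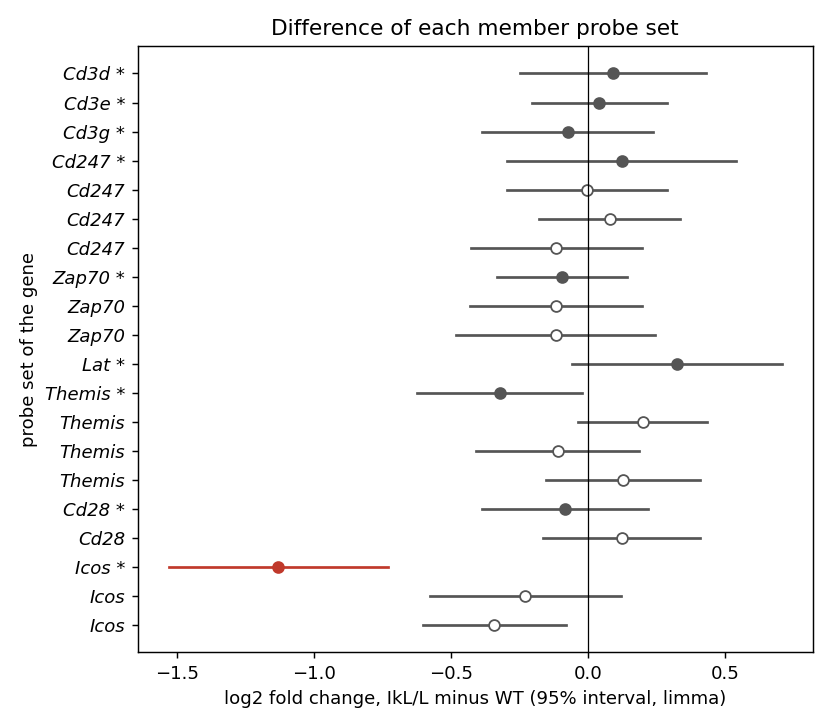
Difference of each member probe set on the log2 scale, with IkL/L minus WT along the horizontal axis, bars for the 95% interval from limma, filled points for the probe set read for the gene and red for an adjusted p under 0.05. The interval of the brightest Icos probe set, from -1.53 to -0.73, lies below those of the other 8 genes as read, which span -0.62 to 0.71.

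The costimulatory receptors Cd28 and Icos lay on either side of the medians, and Icos alone was called. Cd28, the main costimulatory receptor of naive T cells, lay under the medians in both probe sets on all 6 arrays. Its brighter probe set stood at 3.90, 3.73 and 3.43 in WT and at 3.64, 3.54 and 3.63 in IkL/L cells, with overlapping groups and a difference of -0.09 (95% interval -0.39 to 0.22, adjusted p = 0.898). The other gave 0.12.

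Icos, the inducible costimulator that activated T cells and innate lymphoid cells display, fell 2.19-fold in IkL/L LSK cells by 1 of 3 probe sets. Its brightest probe set (1436598_at) stood at 7.06, 6.88 and 6.59 on WT 1, 2 and 3 and at 5.39, 5.90 and 5.84 on IkL/L 1, 2 and 3. All 3 mutant values lay below all 3 WT values, and all 6 lay above the median of their own array. The means were 6.84 ± 0.24 in WT and 5.71 ± 0.28 in IkL/L cells (SD, n = 3), which is 2.01 and 0.89 above the array medians. The difference of -1.13 (SE 0.173, 95% interval -1.53 to -0.73) passed with an adjusted p of 0.0412 in limma. Among all genes 0.242% were called lower and 0.748% higher.

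The other 2 probe sets of Icos also gave lower means in IkL/L cells but did not pass. The second, 1421930_at, stood at 5.78, 5.29 and 5.55 in WT and at 5.20, 5.21 and 5.52 in IkL/L cells, which overlapped, with a difference of -0.23 (adjusted p = 0.734). The dimmest, 1421931_at, lay under the medians at 4.14, 4.19 and 4.09 in WT and at 3.64, 3.77 and 3.98 in IkL/L cells. These groups did not overlap, and the difference was -0.34 (adjusted p = 0.388). The change thus had 1 sign in 3 of 3 probe sets and passed in 1. Probe sets read on the same 6 arrays are not independent, and Zap70, which was not called, also had 1 sign in 3 of 3.

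Leaving out 1 array at a time changed the call for Icos. It held without WT 3 (adjusted p = 0.0356) and was lost without WT 1 (0.184), WT 2 (0.102) and the first (0.127), the second (0.0802) or the third IkL/L array (0.0887). The difference ran from -1.26 to -0.97 in these 6 fits, each with fewer arrays. It was -0.57 with the mean of the 3 probe sets of the gene (adjusted p = 0.0585).

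Over the 9 genes, 1 fell and 0 rose in limma, where 0.242% of all genes fell and 0.748% rose. Of the 9, 2 had an unadjusted p under 0.05 (Icos and Themis). This share was not taken over all genes, here or for the lists below. The median difference was -0.07, against -0.02 over all genes. The groups did not overlap in 3 of the 20 probe sets (2 of Icos, lower, and 1 of Themis, higher), where 14.4% of all probe sets did not (8.36% lower and 6.06% higher). In the probe sets read for the genes, 1 of 9 did not overlap, against 17.2% of all genes. In these, 4 genes (Lat, Zap70, Icos and Cd3e) lay above the medians on all 6 arrays and 5 (Cd3d, Cd3g, Cd247, Themis and Cd28) lay under them on all 6, while 58.9% of all genes lay above on all 6. With a stricter bound, a mean of at least 6 in both groups, the 4 became 2 (Lat and Zap70). For genes under the medians a change may not be measurable.

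In bulk samples such as these, fewer cells that carry Icos RNA and less Icos RNA per cell cannot be told apart. Genes of early lymphoid cells were lower beside Icos. In all 8 measured genes of that list the 3 IkL/L values lay below the 3 WT values, with differences from -1.47 (the chemokine receptor Ccr9) to -0.38 (Ccr7) and a median of -0.81, against -0.02 over all genes. Of the 8, 4 lay above the medians on every array, and Ccr7 lay under them on every array. Rag1 lay above its array median only on WT 2, and Ccr9 on 1 of 3 IkL/L arrays. Non-overlap on the lower side was found in 9.59% of all genes, and on the higher side in 7.62%. The list was chosen with earlier results of these data known, so that its count is no independent test against that share. The mean level of the list ran from 7.59 to 7.98 in WT and from 6.83 to 7.05 in IkL/L arrays. In limma 1 of the 8 fell, Rag2, a subunit of the antigen receptor recombinase (-1.13, adjusted p = 0.0167). Rag2 lay above the medians on all 3 WT arrays and under them on all 3 IkL/L arrays. Its call held without WT 2 or WT 3 and was lost without WT 1 (0.106) and also without the first (0.0835), the second (0.0604) or the third IkL/L array (0.0548). Dntt, the polymerase that extends receptor gene joints without a template, gave -0.78 (0.0532). Flt3, a cytokine receptor of the lymphoid-primed part of LSK cells and listed here as an LSK marker, gave -0.88 (0.132). The part of such cells in the difference of Icos was not tested.

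Markers of T cells, natural killer cells and innate lymphoid cells showed no call, where 0.989% of all genes were called. Among the 9 T cell markers 0 rose and 0 fell in limma, with 0 at an unadjusted p under 0.05 and a median of -0.02. Their mean level ran from 4.60 to 4.73 in WT and from 4.62 to 4.76 in IkL/L arrays. The smallest p belonged to the coreceptor Cd4 (0.25, adjusted p = 0.573), followed by the pre-receptor chain Ptcra (-0.21, 0.626). Of the 9 markers of natural killer and innate lymphoid cells 0 passed, again with 0 at an unadjusted p under 0.05, and the mean level ran from 4.89 to 5.0 in WT and from 4.84 to 5.0 in IkL/L arrays. Of these 9, 6 lay under the medians on all 6 arrays, among them the T-box factors Eomes and Tbx21, and Nkg7 had means of 10.89 in WT and 10.80 in IkL/L cells. Klrd1 gave -0.32 (0.817) and Ncr1 -0.12 (0.835).

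**Figure D3:**
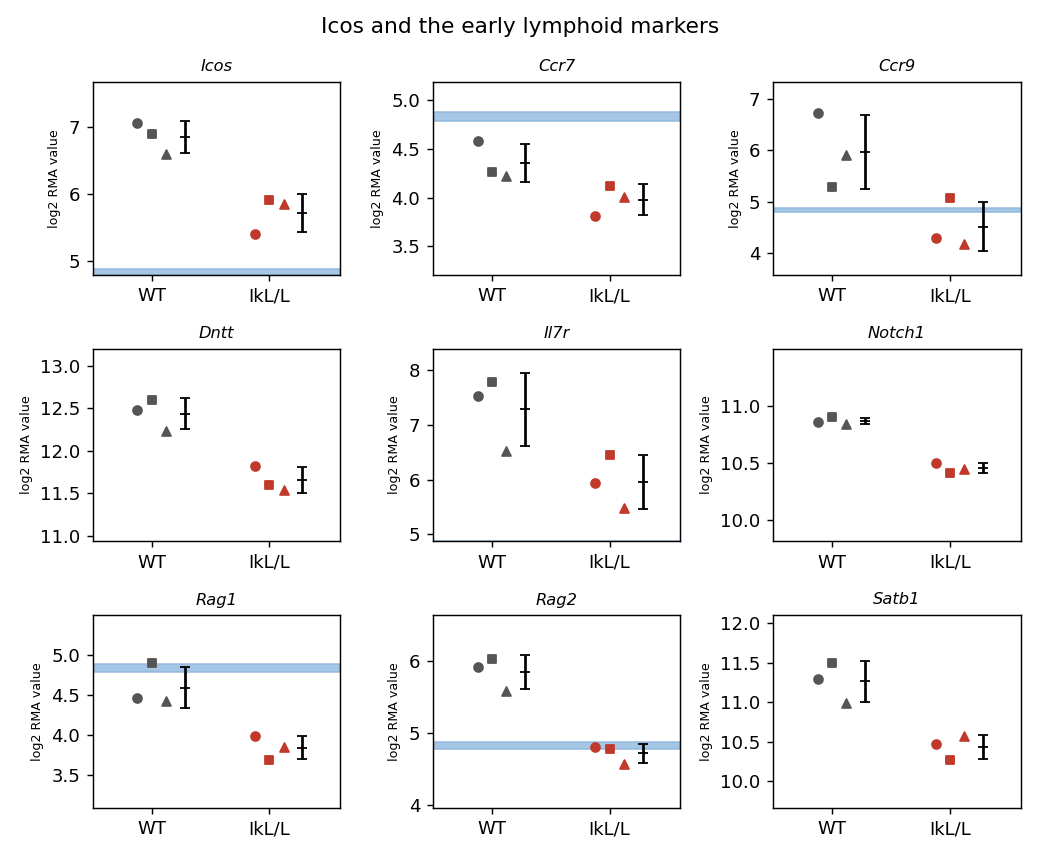
Log2 RMA value (vertical axis, different for each gene and not starting at 0) of Icos and of the 8 measured early lymphoid markers by array, grey for WT and red for IkL/L, with mean and SD of 3 arrays as bars and the blue band for the array medians where it falls in range. In each panel the WT and IkL/L values do not overlap.

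Markers of other lineages gave 5 calls, all higher in IkL/L cells, where 0.748% of all genes were called higher and 0.242% lower. Mcpt8, a basophil protease (2.47, adjusted p = 0.00306), was the 1 of 6 mast cell and basophil genes that rose, and Ms4a2 gave 0.67 (0.234). Of 4 myeloid genes 2 rose, Csf1r (1.76, 0.002) and Elane (2.16, 0.0312), and 1 had a difference below 0, Itgam (-0.13, 0.962). Ms4a1 was the 1 of 5 B cell genes that rose (2.38, 0.0165), with Cd79b at 0.40 (0.388). Ms4a1 lay under the medians on all 3 WT arrays and above them on all 3 IkL/L arrays. In this list 3 differences lay above 0 and 2 below, those of Ebf1 (-0.23, 0.729) and Pax5 (-0.22, 0.736). Of 4 dendritic cell genes 1 rose, Cd74 (1.46, 0.0317), and Itgax gave -0.58 (0.0764). With 1 array left out, Mcpt8 and Csf1r kept their calls in all 6 fits. Ms4a1 lost it without WT 1 or IkL/L 1 (up to 0.106), Elane without the first or the third IkL/L array, WT 1 or WT 2 (up to 0.166) and Cd74 without any WT array or IkL/L 1 (up to 0.149). In the LSK list 0 of 5 passed, with 1 at an unadjusted p under 0.05 (Flt3), and Kit gave -0.13 (0.822). The part of these cells in the members' values was not tested.

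The other genes of the pathway showed no call. Of 58 listed, 51 were read, and 0 rose and 0 fell in limma, near the 0.989% called over all genes. The median was -0.02, equal to that of all genes. An unadjusted p under 0.05 was found in 6 of the 51, and this share was not taken over all genes. The groups did not overlap in 8 genes on the lower side and 2 on the higher, where 9.59% and 7.62% of all genes did not. Above the medians on all 6 arrays lay 32 of the 51.

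Partners of the receptor at the membrane were dim or little changed. Ptcra and the Tcra probe set (0.02, adjusted p = 0.977) lay under the medians on all 6 arrays. Ptprc, the phosphatase CD45 that keeps Src-family kinases active, stood at 12.20, 12.12 and 12.01 on WT 1, 2 and 3 and at 11.89, 11.94 and 11.84 on IkL/L 1, 2 and 3. These groups did not overlap, but the difference of -0.22 did not pass (adjusted p = 0.555). Of 7 kinases and phosphatases 6 lay above the medians, and those with the smallest p were Tec (0.12, 0.771) and Ptpn6 (0.24, 0.782). The difference of Ptpn6 was 0.0055 without WT 2. Differences in this role ran from -0.06 to 0.24.

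Among 13 adaptors, Lax1, a relative of Lat that dampens lymphocyte receptor signalling, had the smallest p. It stood at 5.84, 5.50 and 5.78 on WT 1, 2 and 3 and at 4.67, 5.32 and 4.70 on IkL/L 1, 2 and 3. The groups did not overlap, and 2 mutant values lay under their array medians, but the difference of -0.81 did not pass (adjusted p = 0.17). It passed without IkL/L 2 (-1.02, 0.0489). Pag1, an anchor for the kinase Csk, gave -0.30 (0.541).

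Downstream of the scaffold, Nfatc2, a calcium-responsive transcription factor, stood at 9.04, 8.08 and 8.47 on WT 1, 2 and 3 and at 7.65, 7.92 and 7.40 on IkL/L 1, 2 and 3. The groups did not overlap, WT 2 and IkL/L 2 being nearest, and the difference of -0.87 did not pass (adjusted p = 0.27). Malt1 gave -0.27 (0.583), and 7 of the 8 genes of this role lay above the medians on all 6 arrays.

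The relatives and ligands of the costimulatory members gave no call. Ctla4, the inhibitory relative of Cd28 and Icos, lay under the medians on all 6 arrays (difference 0.00, 95% interval -0.26 to 0.27). Tnfrsf18 gave -0.42 (adjusted p = 0.424) and Btla -0.60 (0.667), the latter with -0.38 without WT 1 and -0.97 without WT 3. Icosl, the ligand of Icos, was above the medians on all 6 arrays and gave -0.06 (95% interval -0.34 to 0.21, adjusted p = 0.918). Cd86, a ligand of Cd28, stood at 6.67, 6.43 and 6.12 in WT and at 5.74, 6.08 and 5.45 in IkL/L cells, which did not overlap (-0.65, 0.315). Pdcd1lg2 gave -0.44 (0.645), with -0.22 without IkL/L 3 and -0.67 without IkL/L 2. All 5 ligands had differences below 0, from -0.65 to -0.02 with a median of -0.09, against -0.02 over all genes. The share of all genes below 0 was not taken.

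**Figure D4:**
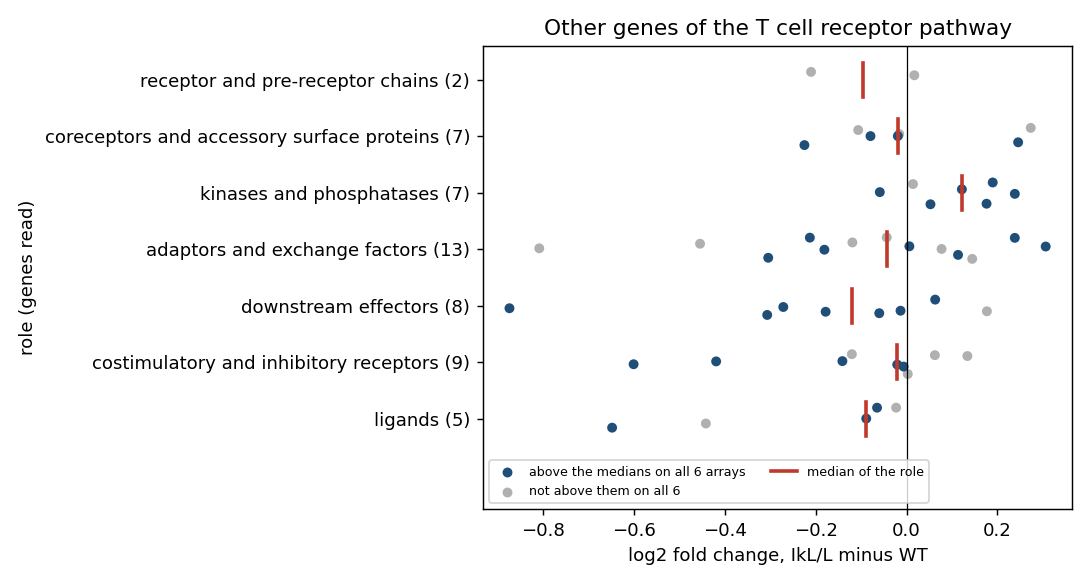
The 51 other pathway genes by role (vertical axis) and log2 difference (IkL/L minus WT, along the horizontal axis), with 1 point per gene, blue where the gene lay above the array medians on all 6 arrays and grey where it did not, and a red bar for the median of the role. The points at the far left are Nfatc2 (-0.87) and Lax1 (-0.81), and none of the 51 passed the adjusted threshold.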

How the data were processed

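RNA of sorted LSK cells was hybridised to Affymetrix mouse genome arrays after a 2-cycle labelling of 100 ng of total RNA. The values that the authors deposited are on the log2 scale and come from RMA, which corrects background, equalises the quantiles and summarises each probe set. RMA and R 2.8 are named in the processing notes of the submitters, and the methods state a joint normalization with thymocyte arrays. Quantile normalization removes any change in total RNA. The number of arrays limits the precision.

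Gene names were taken from the annotation of the platform and brought up to date by Entrez number through RefSeq (GRCm38.p6). Of the probe sets 34945 had 1 gene, 932 several and 9160 were not listed. Of the first, 34741 matched. A gene was read from the probe set with the highest mean over all 6 arrays. The genotype effect was tested two-sided by lmFit and eBayes (limma 3.58.1, R 4.3.3), and the fit was tested on simulated data. Alternatives were a second quantile normalization, median centring, array weights, a moderation that was robust and followed intensity, removal of dim probe sets, the replicate number as a block, averaging all probe sets of a gene, and each array left out. The named genes were the members, Ikzf1, called genes of each list, and up to 2 genes per role or list with the smallest p. Icosl, Ctla4, Ccr7, Ccr9, Eomes, Tbx21, Nkg7, Ebf1, Pax5, Itgam and the T cell markers given by level were chosen after their values were seen. The members and lists were chosen with earlier results of these data known.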

Additional observations from a re-analysis of the deposited data

How the results depend on the processing

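With 3 arrays per group, calls near the threshold changed with the samples and the reading of a gene. The number of the 10 listed genes that differed (1, Icos) was 0 with the replicate number as a block, 0 when all probe sets of a gene were averaged and 0 to 1 with 1 array left out. Icos was lower under all 13 alternatives, from -1.26 to -0.57, and kept the call under 6. Among the named genes, the block changed only the calls of Icos (adjusted p = 0.12), Ikzf1 (0.118) and Cd74 (0.0648), and the number of probe sets called from 251 to 143. The numbers do not pair the samples: deviations at a shared number correlated at -0.11 to 0.08, and 2 of the 6 samples correlated best with their own number. With 1 array left out, 57 to 287 probe sets, 0 to 1 pathway genes, 0 to 1 LSK, 0 to 4 early lymphoid, 0 to 1 B cell, 1 to 2 myeloid and 0 to 1 dendritic cell genes were called, and the B cell median ran from 0.050 to 0.39.

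Of the early lymphoid genes 2 were called with centring or the block, and 3 with an intensity trend, array weights or the mean of probe sets. Of the dendritic cell genes 0 were called with the block, 2 with array weights and 3 with the mean of probe sets. The filter on dim probe sets left 0 B cell genes called and medians of 0.088 (B cell), 1.76 (myeloid) and 0.91 (dendritic cell). It removed the dim genes of these lists, among them Ms4a1, the B cell gene called otherwise. The number of members above the medians was 2 with a bound of 6, and 4 with 1 array left out.

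Some differences that did not pass turned in sign. The Cd247 probe set 1420716_at gave 0.025 with a second quantile normalization and 0.014 with centring, and Cd28 gave 0.019 and Kit 0.17 with the mean of probe sets. With 1 array left out the differences ran from -0.21 to 0.022 for Cd28, -0.068 to 0.20 for Cd3d, -0.033 to 0.094 for Cd3e and -0.19 to 0.026 for Cd3g. They ran from -0.54 to 0.032 for Klrd1, -0.033 to 0.071 for Tcra, -0.086 to 0.098 for the Cd247 probe set, -0.30 to 0.00032 for Zap70 probe set 1422701_at and -0.21 to 0.022 for 1440178_x_at. The cause was not tested.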
